A study of Mus musculus with 70 samples.

Results

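The lysosome genes described here are 38 mouse genes, taken by gene symbol from a list of lysosomal proteins, and all 38 were found among the 24420 genes of the count table. By role they are 10 proteases, 8 glycosidases, 6 proteins of lipid and fatty acyl handling, 8 membrane proteins, 1 secreted precursor (Grn) and 5 parts of the proton pump. No rule on measured values chose them, but the list was drawn up with earlier results of these data known. They were followed in whole lung of mice that had inhaled crystalline silica or air, with total RNA depleted of ribosomal RNA and sequenced as stranded libraries, 1 per mouse and 70 in all.

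Lysosomes are acid compartments that break down material brought in by phagocytosis, endocytosis and autophagy. A membrane pump fills them with protons, and the proteases and glycosidases inside work best at low pH. In the lung, alveolar macrophages take inhaled particles into this compartment, and alveolar type 2 cells store surfactant in lamellar bodies, which are related organelles. Silica crystals are known to damage the lysosomal membrane of the macrophages that engulf them.

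The mice were males about 3 months old at exposure. They came from breeding heterozygous 129S-Slc26a4tm1Erg/AjgJ mice (the sample entries write 129S-Slc26Atm1Egr/AjgJ), and were either homozygous wildtype (Pds+/+) or homozygous knockout (Pds-/-) for Slc26a4, the gene of the anion exchanger pendrin. The knockout is carried in every cell. Silica was Min-U-Sil5 in whole-body chambers at 15 mg/m3, for 6 hours a day on 4 days, and control mice breathed air in the same design. Lungs were taken 1 day, 3 months or 9 months after exposure, which gave 12 groups of 6 mice, except the wildtype air and wildtype silica groups of 9 months with 5 each.

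Library totals ran from 802478 to 5596316 counts with a median of 2183480, and the 38 genes together held between 0.537% and 1.43% of them. Slc26a4 was lower in knockout than in wildtype lungs by group median at each time and exposure. The library labelled knockout air 9 months, replicate 4, held 51.7 normalised CPM (counts divided by the effective library size). The lowest value and the median of its group were 1.32 and 3.33, and the median of wildtype air lungs of 9 months was 16.8. Knockout lungs also held Slc26a4 counts after silica, up to 36.4 at 3 months (group median 13.9). Whether the label of that library is right was not tested. Wildtype air replicate 5 and knockout air replicates 4 and 5 of 9 months also stood apart in Chil3, a chitinase-like gene of macrophages, with 8011, 6583 and 2997 normalised CPM, more than 2 times their groups' medians. By the same measure wildtype silica replicate 5 of 9 months (2472) and knockout silica replicate 3 of 3 months (1409) stood apart, and both held the highest sum of the 38 genes in their group. For the 38 genes, the main counts that rest on these libraries, and the estimates they move most, are given with and without them. Type 1, type 2, club and endothelial cell markers of lung were above 0 in every library, with a median of 4707 normalised CPM for Sftpc, which encodes surfactant protein C of type 2 cells.

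In the wildtype air lungs of 1 day the transcripts differed widely in level. Per kilobase of exon, Psap, the precursor of the saposins that help sphingolipid enzymes, was highest with 242 ± 9.38 CPM (SD, n = 6), followed by Lamp1, the main glycoprotein of the lysosomal membrane, with 211 ± 4.77, and Ctsd, an aspartic protease, with 180 ± 12.5. Their ranges place Psap above Lamp1 and Lamp1 above Ctsd without overlap. At the other end stood Cln3, a membrane protein of the lysosome, with 2.82 ± 0.282, Mcoln1, its calcium channel, with 3.39 ± 0.244, and Gla, the alpha-galactosidase, with 3.40 ± 0.345. The last pair did not differ beyond their spread. Gene length here is all annotated exon sequence of a gene, so a gene with long exons that lung transcripts do not use is set too low.

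**Figure D1:**
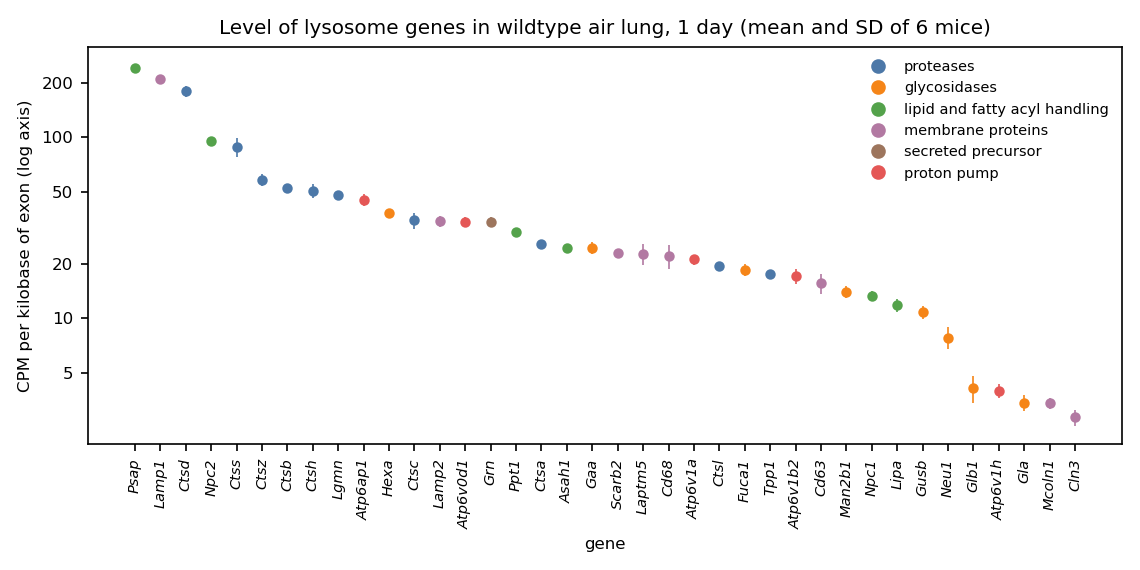
Level of each of the 38 lysosome genes in the 6 wildtype air lungs of 1 day, as normalised CPM per kilobase of annotated exon on a log axis, with points for the mean and lines for the SD, coloured by role. Psap, Lamp1 and Ctsd lie highest, at 242, 211 and 180, and Cln3 lies lowest, at 2.82.

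Many lysosome genes are known targets of the transcription factor TFEB, which binds a sequence around TCACGTG. RefSeq promoter windows (GRCm38.p6, 250 bases before to 50 after the start site) matched 32 of the 38 genes. Atp6v1h, Ctsh, Atp6v1b2, Asah1, Npc1 and Ctsb had none. TCACGTG, read on both strands, stood in the windows of 11 of the 32 (34.38%) and in those of 4.292% of all 27025 genes. Those with it were Atp6v0d1, Atp6v1a, Cln3, Ctsa, Ctsd, Gaa, Gla, Glb1, Lamp1, Lgmn and Mcoln1. These matches describe letters, not binding. The stretches below first show the string in a pair of genes that rose with silica (Ctsd, Gla). A pair that did not pass the test after silica follows (Lamp1, Mcoln1). Each of these windows holds the string more than once, and in Ctsd and Gla a copy lies outside or at the edge of the stretch. The last pair rose with silica and have no copy in the window (Ctsz, Cd68). Capitals mark TCACGTG or its reverse complement CACGTGA, and TCACGTGA where both overlap. All are written 5′ to 3′ on the gene's strand.
Ctsd, chr7:142387886-142387955, minus strand, bases -128 to -59 from the start site: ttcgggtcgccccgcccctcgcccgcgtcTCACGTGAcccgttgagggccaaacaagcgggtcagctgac
Gla, chrX:134601160-134601229, minus strand, bases -224 to -155: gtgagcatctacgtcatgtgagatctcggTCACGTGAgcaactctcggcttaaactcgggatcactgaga
Lamp1, chr8:13159091-13159160, plus strand, bases -70 to -1: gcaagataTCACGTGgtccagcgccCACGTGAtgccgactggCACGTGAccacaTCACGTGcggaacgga
Mcoln1, chr8:3500444-3500513, plus strand, bases -75 to -6: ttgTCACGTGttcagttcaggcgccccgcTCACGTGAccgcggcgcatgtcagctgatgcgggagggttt
Ctsz, chr2:174439040-174439109, minus strand, bases -70 to -1: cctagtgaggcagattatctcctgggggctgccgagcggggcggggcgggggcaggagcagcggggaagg
Cd68, chr11:69666171-69666240, minus strand, bases -70 to -1: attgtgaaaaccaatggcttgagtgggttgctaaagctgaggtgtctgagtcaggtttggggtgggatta

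At 1 day after silica 3 proteases and the macrophage protein Cd68 rose in both genotypes, the lipase Lipa rose in wildtype lungs, and the thioesterase Ppt1 fell in both. In wildtype lungs 5 members were higher (Cd68, Ctsc, Ctsz, Lipa and Ctsh) and 1 lower (Ppt1), at an adjusted p under 0.05 by edgeR's quasi-likelihood test. In knockout lungs 4 were higher (Cd68, Ctsz, Ctsc and Ctsh) and 1 lower (Ppt1). Over all 12558 genes tested, 2.37% passed in wildtype lungs (1.95% higher and 0.422% lower) and 1.93% in knockout lungs (1.7% higher and 0.223% lower). The median log2 fold change of the 38 was 0.11 in wildtype and 0.095 in knockout lungs, beside 0 and -0.001 over all genes. In bulk lung, more cells of a type and more RNA per cell cannot be told apart.

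Cd68 (chr11:69664213-69666153 of mm10), the macrosialin of macrophage lysosomes, showed the largest increase of the 38. In wildtype lungs it lay between 22.1 and 34.4 normalised CPM in air (median 26.7) and between 30.2 and 49.2 after silica (median 44.8), so the lowest silica mice lay within the air range. The log2 fold change was 0.61 (SE 0.14, adjusted p = 0.0124). In knockout lungs the range was 16.1 to 35.6 in air (median 28.6) and 35.4 to 59.6 after silica (median 43.5), which overlapped only at their ends, with a log2 fold change of 0.72 (SE 0.15, adjusted p = 0.00546).

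Among the proteases, Ctsz (chr2:174427493-174439039), a cysteine carboxypeptidase, was the only member whose knockout groups did not overlap. Its knockout lungs held 78.1 to 90.8 normalised CPM in air and 110.5 to 148.2 after silica (log2 fold change 0.46, SE 0.09, adjusted p = 0.000977). Wildtype lungs overlapped slightly, with 75.4 to 89.9 in air and 88.0 to 123.6 after silica (0.35, SE 0.08, adjusted p = 0.0127). Over all genes, 1.04% had every knockout silica mouse above every knockout air mouse. Ctsc, the dipeptidyl peptidase that activates the granule proteases of neutrophils and mast cells, rose by 0.39 in wildtype (SE 0.09, adjusted p = 0.0114) and 0.43 in knockout lungs (SE 0.09, adjusted p = 0.00518). For Ctsh, an aminopeptidase that type 2 cells use to process surfactant proteins, the values were 0.33 (SE 0.08, adjusted p = 0.0171) and 0.34 (SE 0.08, adjusted p = 0.0141). The other 7 proteases did not pass in either genotype. Ctss, which trims the invariant chain for antigen presentation, had a log2 fold change of 0.32 in wildtype lungs (SE 0.10, adjusted p = 0.0772) and 0.08 in knockout lungs (SE 0.10, adjusted p = 0.833).

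Of the lipid group, Lipa, the acid lipase that frees cholesterol from its esters, rose in wildtype lungs from 70.6 to 86.7 normalised CPM in air (median 81.7) to 94.9 to 108.7 after silica (median 102.9), with no overlap (0.35, SE 0.09, adjusted p = 0.016). Its knockout estimate was 0.13 (SE 0.09, adjusted p = 0.639). Ppt1, a thioesterase that removes palmitate from proteins, fell. It went from 102.9 to 116.3 in wildtype air lungs to 79.6 to 102.8 after silica, without overlap (-0.28, SE 0.08, adjusted p = 0.0364), and fell by 0.31 on the log2 scale in knockout lungs (SE 0.08, adjusted p = 0.0246). No glycosidase, proton pump part or Grn passed at this time in either genotype by edgeR, though 2 glycosidases in each genotype and 1 pump part in wildtype lungs had an unadjusted p under 0.05. In wildtype lungs 4 members had every silica mouse above every air mouse (Ctsb, Ctsh, Lipa and Lamp1), beside 2.05% of all genes, and Ppt1 had every silica mouse below, beside 0.948%. Without wildtype air replicate 2 or wildtype silica replicate 4 the wildtype count fell from 6 to 2.

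Some macrophage markers moved with these genes. Of the 9 tested genes of a general macrophage list, 3 were higher in wildtype lungs (Itgax, Lyz2 and Cd14) and 4 in knockout lungs (the same 3 and C1qb). The summed level of the list was 2510 to 2843 normalised CPM in wildtype air and 3053 to 3572 in wildtype silica lungs, and 2878 to 3371 against 3576 to 4524 in knockout lungs. Most of this sum was Lyz2, with air and silica medians of 2350 and 3136 in wildtype and 2707 and 3434 in knockout lungs. Adgre1, also listed, had 22.7 and 24.7 in wildtype and 27.1 and 26.4 in knockout lungs, in the same order. None of the 10 listed genes was at 0 in more than 1 library. The list of lipid-laden macrophages had 4 of 6 tested genes higher in each genotype (Gpnmb, Spp1, Mmp12 and Fabp5). The sum of its 7 listed genes overlapped, with 598.4 to 745.2 in air and 681.2 to 773.1 after silica in wildtype lungs. In knockout lungs that sum was 647.3 to 776.8 in air and 647.4 to 824.9 after silica. The list of resident alveolar macrophages had 2 of 8 higher (Marco and Plet1). Siglecf, also on the resident list, went the other way, with medians of 10.3 in air and 6.58 after silica in wildtype lungs. In knockout lungs its medians were 11.2 and 7.26. Of 8 type 2 cell markers 2 were higher in each genotype (Lamp3 and Sftpa1), and the club cell gene Cyp2f2 was lower in each. Of the neutrophil list 2 of 5 were higher in wildtype lungs and 0 of 5 in knockout lungs (3 at an unadjusted p under 0.05). Their part in the lysosome result was not tested.

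**Figure D2:**
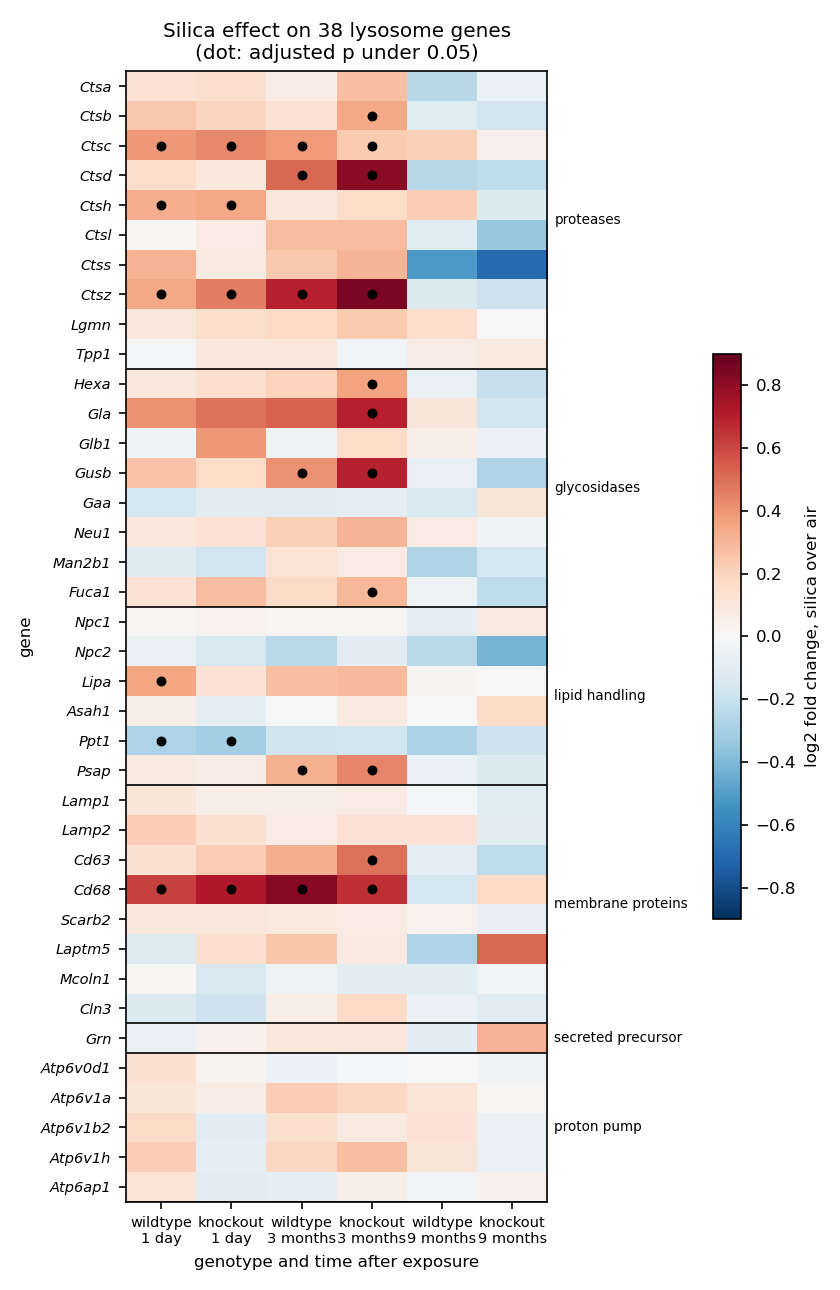
Log2 fold change of silica over air for the 38 lysosome genes (rows, by role) in each genotype and time (columns), from edgeR, with dots where the adjusted p was under 0.05. Dots fill 6, 5, 6 and 11 cells in the first 4 columns and none in the 9-month columns, and the 5 proton pump rows hold none.

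At 3 months after silica the genes that rose in both genotypes were Cd68, the proteases Ctsz, Ctsd and Ctsc, the glycosidase Gusb and the saposin precursor Psap. In wildtype lungs 6 members were higher and none lower, beside 2.96% of all 12647 genes (2.24% higher). In knockout lungs 11 were higher and none lower, beside 4.8% (3.02% higher). All 6 of the wildtype calls were among the knockout calls, and they make up 54.5% of that list. The silica effect was not shown to differ between 1 day and 3 months for any member, as given with the comparisons across times. The other 5 knockout calls were Gla, Cd63, Hexa, Ctsb and Fuca1. The median log2 fold change of the 38 was 0.137 and 0.18, beside -0.007 and 0.002 over all genes.

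Ctsz had the smallest adjusted p among the proteases in both genotypes. Wildtype lungs held 69.9 to 93.8 normalised CPM in air (median 74.7) and 103.2 to 154.9 after silica (median 124.2), with a log2 fold change of 0.70 (SE 0.11, adjusted p = 9.58e-05). In knockout lungs the ranges were 73.0 to 86.2 in air and 117.8 to 208.3 after silica (0.85, SE 0.11, adjusted p = 5.31e-06). The air and silica mice were fully apart in both genotypes.

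Ctsd (chr7:142375911-142388038), the aspartic protease, was apart too. Its wildtype air lungs lay between 431.9 and 492.2 normalised CPM and its wildtype silica lungs between 550.4 and 733.8 (0.52, SE 0.15, adjusted p = 0.0491). Knockout lungs went from 397.4 to 486.1 in air to 576.5 to 1515 after silica (0.81, SE 0.15, adjusted p = 0.000699). The top value of 1515 was replicate 3, and the other 5 silica mice reached 738.6. Ctsc rose by 0.38 (SE 0.07, adjusted p = 0.00034) in wildtype and 0.23 (SE 0.07, adjusted p = 0.0315) in knockout lungs. Ctsb, a cysteine protease, passed in knockout lungs (0.35, SE 0.09, adjusted p = 0.0198) and had an estimate of 0.13 in wildtype lungs (SE 0.09, adjusted p = 0.595). Ctsh, called at 1 day, had estimates of 0.11 and 0.17 (SE 0.07 each, adjusted p = 0.579 and 0.206).

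**Figure D3:**
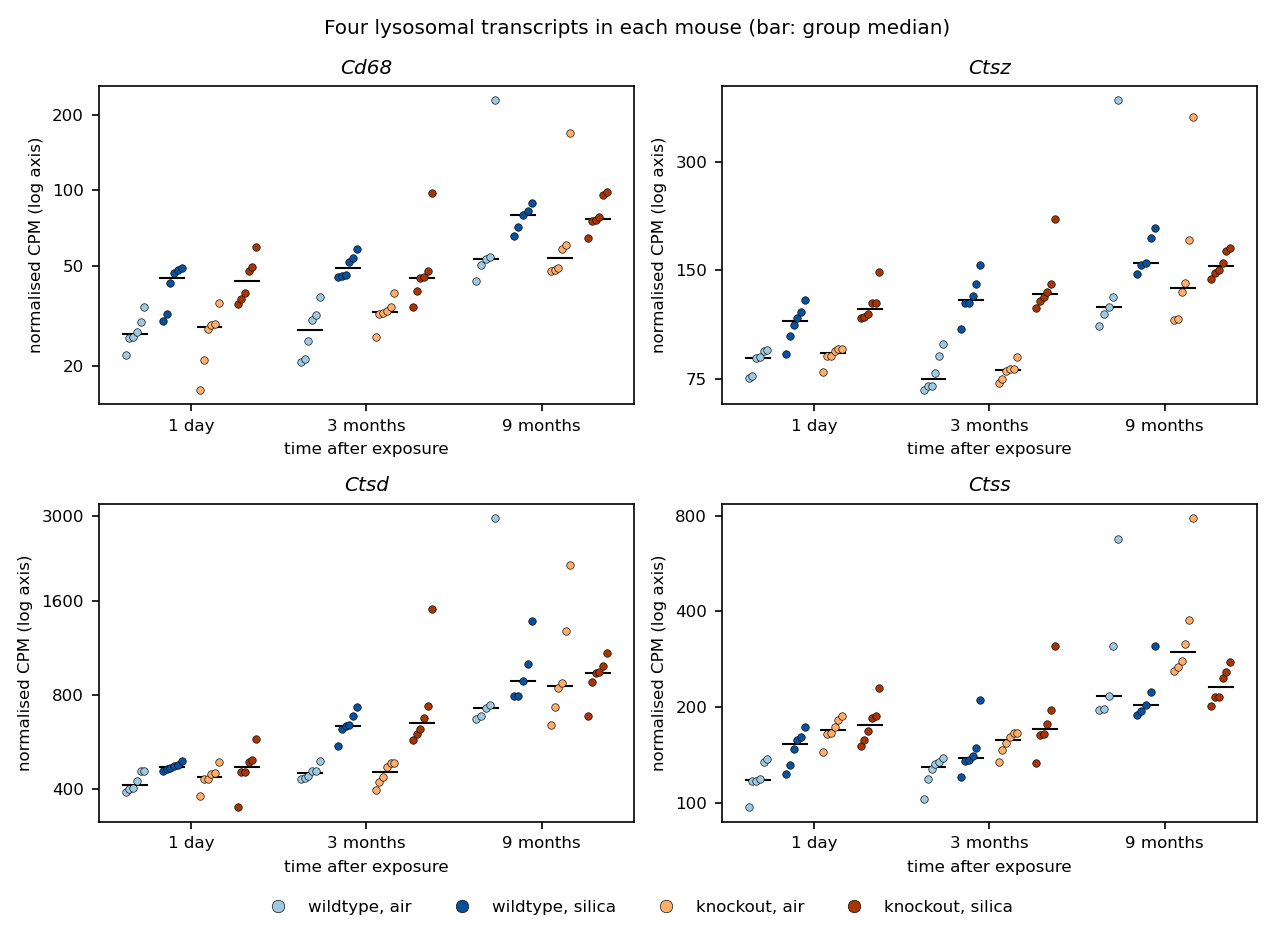
Normalised CPM of Cd68, Ctsz, Ctsd and Ctss in each of the 70 mice (points; log axes) by time, genotype and exposure, with bars at group medians. At 3 months every silica mouse lies above every air mouse for Ctsz and Ctsd, and at 9 months single air mice reach 228.1 (Cd68), 443.1 (Ctsz), 2948 (Ctsd) and 784.8 (Ctss).

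Of the 8 glycosidases, 1 was higher in wildtype lungs and 4 in knockout lungs. Gusb, the beta-glucuronidase, went from 42.8 to 55.0 normalised CPM in wildtype air lungs (median 44.6) to 53.8 to 74.8 after silica (median 60.3), with a log2 fold change of 0.41 (SE 0.09, adjusted p = 0.00447). Its knockout groups did not overlap, with 42.2 to 47.6 in air and 65.8 to 87.0 after silica (0.69, SE 0.09, adjusted p = 4.57e-06). Gla rose in knockout lungs from a median of 9.86 to 15.5 (0.70, SE 0.20, adjusted p = 0.0335), with overlapping groups, and had a wildtype estimate of 0.53 (SE 0.18, adjusted p = 0.126). Hexa, a subunit of beta-hexosaminidase, and Fuca1, the alpha-fucosidase, rose in knockout lungs by 0.36 (SE 0.10, adjusted p = 0.0273) and 0.30 (SE 0.09, adjusted p = 0.0476). Gaa, which degrades glycogen, had the lowest estimates of the group, -0.10 and -0.08 (SE 0.08 each, adjusted p = 0.662 and 0.653).

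Psap rose in both genotypes without overlap. It lay between 643.8 and 727.1 normalised CPM in wildtype air and between 771.8 and 937.4 in wildtype silica lungs (0.32, SE 0.09, adjusted p = 0.0384), and went from 607.0 to 727.3 to 773.4 to 1321 in knockout lungs (0.44, SE 0.09, adjusted p = 0.002). Npc2, which hands cholesterol to the membrane transporter Npc1, had every wildtype silica mouse (409.4 to 446.6) below every air mouse (475.5 to 533.7). With all mice it did not pass the test (-0.24, SE 0.07, adjusted p = 0.0763). Npc1 had estimates of 0.02 and 0.01. Over all genes, 1.78% had every wildtype silica mouse above every air mouse and 0.893% every one below. Among the members 5 were above in this way in wildtype lungs (Ctsc, Ctsd, Ctsz, Psap and Cd68) and 5 in knockout lungs (Ctsb, Ctsd, Ctsz, Gusb and Psap), where 1.45% of all genes were. In the membrane group Cd68 rose by 0.82 in wildtype lungs, from 20.8 to 37.5 in air to 45.2 to 58.4 after silica (SE 0.18, adjusted p = 0.0071). In knockout lungs it overlapped, with 26.0 to 39.2 in air and 34.4 to 97.6 after silica (0.66, SE 0.19, adjusted p = 0.0346). Cd63, a tetraspanin of late endosomes, passed in knockout lungs (0.49, SE 0.13, adjusted p = 0.0184). Lamp1, Lamp2, Scarb2, Mcoln1 and Cln3 had estimates between -0.09 and 0.18 over both genotypes, and none passed.

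With all mice, parts of the proton pump and Grn gave no call by edgeR after silica at any time in either genotype. At 3 months the 5 pump estimates ran from -0.086 to 0.22 in wildtype (1 at an unadjusted p under 0.05) and from -0.008 to 0.27 in knockout lungs (2 at an unadjusted p under 0.05). Grn, the precursor of the granulins, had 0.10 in both (SE 0.09).

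The knockout counts at 3 months rest in part on replicate 3 of the silica group. This mouse held the highest value of its group for Cd68 (97.6), Ctsz (208.3), Ctsd (1515) and Ctss (311.4), and its 38 genes summed to 9384 normalised CPM, while the group median was 6577. Its Gpnmb, a gene of lipid-laden macrophages, stood at 267.4 beside a group median of 93.5. Without it, 5 members were higher in knockout lungs (Ctsd, Ctsz, Gusb, Psap and Ctsc) and Npc2 was lower (-0.20, SE 0.06, adjusted p = 0.0453). The estimates of Ctsd, Ctsz, Gusb and Psap were then 0.51, 0.69, 0.62 and 0.30 (SE 0.07, 0.09, 0.09 and 0.06). Cd68 had 0.35 (SE 0.13, adjusted p = 0.157), and Cd63, Ctsb, Hexa, Fuca1 and Gla had 0.31, 0.22, 0.22, 0.23 and 0.58, with adjusted p between 0.06 and 0.152. In the same refit the wildtype count rose from 6 to 10, since the groups of a time share 1 estimate of the spread. Of these 10, 9 were higher and Npc2 was lower (-0.24, SE 0.05, adjusted p = 0.00669). Leaving out knockout air replicate 2, 4 or 6 gave 7, 6 and 7 knockout calls. When all 70 libraries, with the spread of the 9-month mice, entered 1 model, no wildtype and 3 knockout calls were left at 3 months.

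Some macrophage genes moved at 3 months as well. The general macrophage list had 4 of 9 tested genes higher in wildtype lungs and 6 in knockout lungs. Its summed level was 2804 to 3137 normalised CPM in wildtype air and 3226 to 4486 in wildtype silica lungs, and 2887 to 3610 against 3966 to 4883 in knockout lungs. Lyz2 again made up most of it, with air and silica medians of 2612 and 3145 in wildtype and 2771 and 3688 in knockout lungs. For Adgre1 they were 26.6 and 25.7 in wildtype and 26.4 and 29.7 in knockout lungs. Markers of alveolar type 1 cells had 3 of 6 lower in knockout lungs and 0 of 6 in wildtype lungs (2 at an unadjusted p under 0.05). Their sum had air and silica medians of 4290 and 3968 in wildtype and 4375 and 3849 in knockout lungs. The lowest knockout silica mouse held 2482. All marker counts given here use all mice, knockout silica replicate 3 among them. The list of lipid-laden macrophages had 4 of 7 and 5 of 7 higher, with sums of 723.3 to 840.8 against 887.0 to 1045 and 654.0 to 776.9 against 952.5 to 1624. Markers of resident alveolar macrophages were split, with 2 of 8 tested higher (Marco and Plet1) in each genotype, 3 lower in wildtype lungs (Siglecf, Fabp1 and Ear1) and 2 lower in knockout lungs (Siglecf and Fabp1). No listed gene of these lists was at 0 in more than 1 library. Their part in the lysosome result was not tested.

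**Figure D4:**
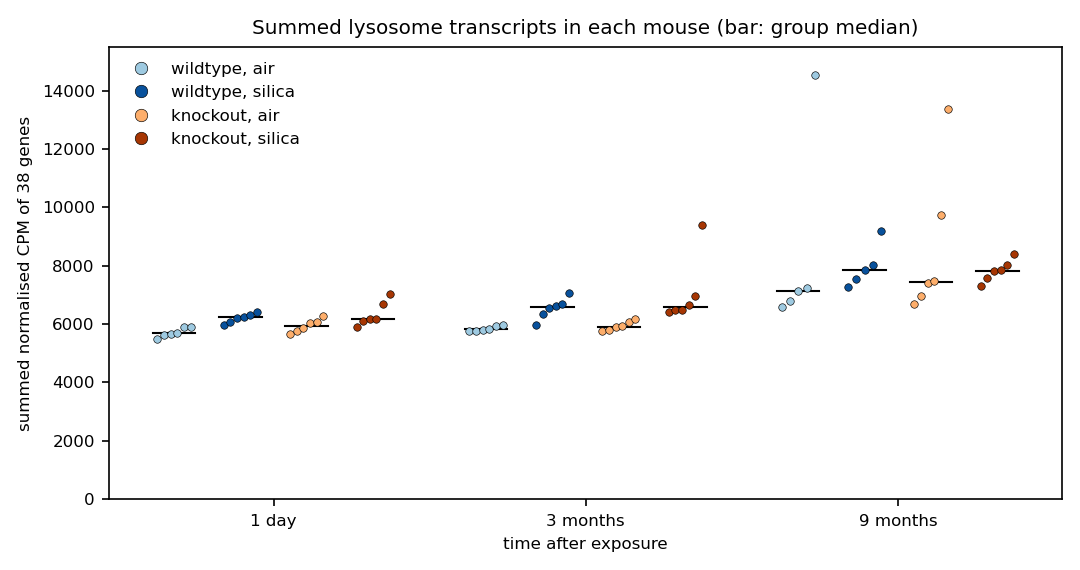
Summed normalised CPM of the 38 lysosome genes in each of the 70 mice by time, genotype and exposure, with bars at group medians and an axis that starts at 0. Silica medians lie above air medians at each time, and the highest air mice of 9 months reach 14535 and 13386. The wildtype groups of 1 day and both genotypes' groups of 3 months do not overlap. At 3 months the highest wildtype air mouse (5963.4) nearly meets the lowest wildtype silica mouse (5965.5).

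At 9 months no member passed in either genotype, when all mice were used. By edgeR 1 of 38 had an unadjusted p under 0.05 in wildtype and 4 in knockout lungs. DESeq2 called 0 and 0, and limma with quality weights 0 and 1. Few genes passed at all, 0.0234% in wildtype and 0.179% in knockout lungs of 12826. Air mice spread most. Cd68 was 43.6, 50.65, 53.4, 54.2 and 228.1 normalised CPM in the 5 wildtype air mice and 66.1, 71.2, 79.8, 82.9 and 88.8 in the 5 silica mice. Of the air mice, 4 lay below every silica mouse and 1 lay far above, and the log2 fold change was -0.16 (SE 0.37, adjusted p = 0.961). Knockout air mice held 47.6 to 168.6 (median 53.8) and knockout silica mice 64.6 to 98.7 (median 77.2).

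Wildtype air replicate 5 and knockout air replicates 4 and 5 held the 3 highest sums of the 38 genes among air mice of 9 months, 14535, 13386 and 9746 normalised CPM, beside group medians of 7136 and 7432. They also held 320.4, 294.0 and 104.0 of Ctsk, and 722.5, 528.6 and 173.5 of Gpnmb. These 3 mice had been singled out by Chil3 among air mice, after the values were seen. Leaving high mice out of the air groups alone raises silica over air by construction, so the rule was also applied to all groups. It took out no knockout silica mouse of 9 months, so in knockout lungs that rise by construction remains. Adgre1, which encodes the macrophage antigen F4/80, was 67.6, 94.4 and 60.9 in them, and the part of macrophages in their lysosome levels was not tested.

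Without these 3 mice, 4 members were higher in wildtype lungs (Ctsz, Cd68, Ctsc and Lipa) and 5 in knockout lungs (Laptm5, Cd68, Grn, Ctsz and Ctsc), with 1.22% and 1.47% of all genes higher. Applied to all groups, the rule also took out wildtype silica replicate 5, and 3 members were higher in wildtype lungs (Cd68, Ctsc and Ctsz, beside 0.921% of all genes) and the same 5 in knockout lungs (beside 1.66%). The knockout groups again lost only air mice. Lipa then had 0.40 in wildtype lungs (SE 0.12, adjusted p = 0.104), and Cd68 had 0.61 and 0.67 (SE 0.13 and 0.12, adjusted p = 0.00829 and 0.000609). Without the 3 air mice alone Cd68 had log2 fold changes of 0.62 (SE 0.12, adjusted p = 0.00302) and 0.67 (SE 0.11, adjusted p = 0.000712). Estimates were above 0 for 31 and 33 of the 38, with medians of 0.189 and 0.132, while with all mice 15 and 10 were above 0. In that setting 11 members had every wildtype silica mouse above every air mouse, beside 3.03% of all genes, and 6 did so in knockout lungs, beside 2.27%. None had every silica mouse below, beside 1.87% and 1.33%. With all mice no member had every silica mouse above, beside 0.741% and 0.398%. Non-overlap was not counted under the rule for all groups, so the rise by construction applies to the counts without the 3 air mice. Laptm5, a lysosomal membrane protein of blood cells, had a knockout estimate of 0.65 (SE 0.11, adjusted p = 0.000534), and Grn one of 0.41 (SE 0.10, adjusted p = 0.0199).

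**Figure D5:**
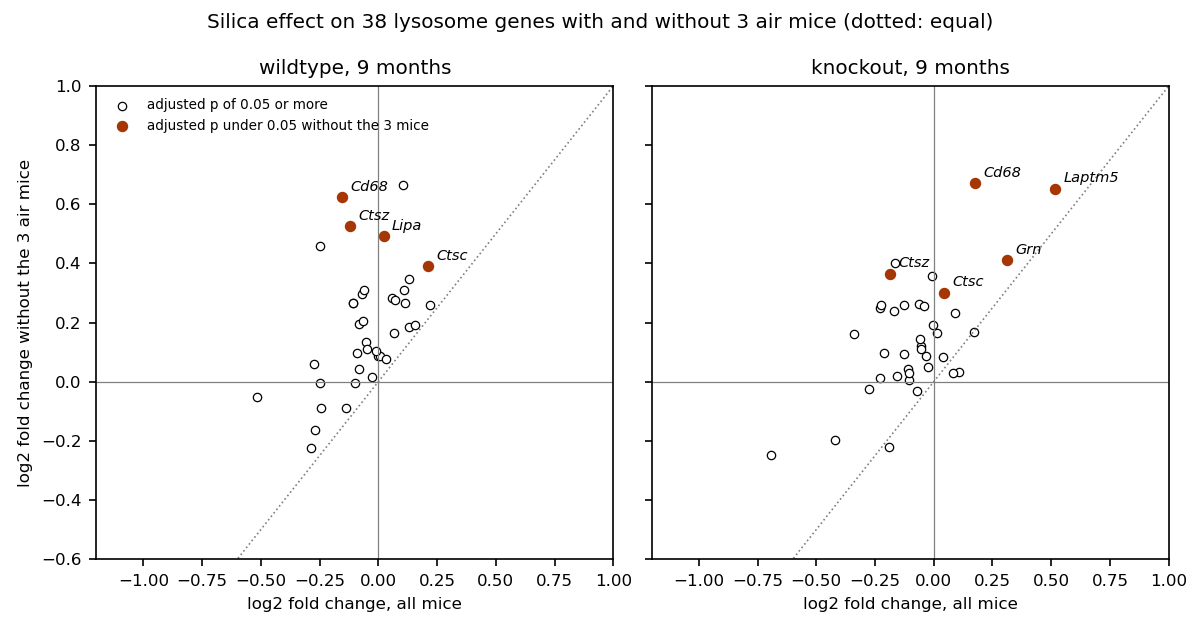
Log2 fold change of silica over air at 9 months for the 38 lysosome genes with all mice (horizontal axis) and without 3 air mice (vertical axis), in wildtype (left) and knockout lungs (right). Filled points, 4 and 5 in number, passed an adjusted p of 0.05 without the 3 mice, and most points lie above the dotted line of equal values.

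Loss of Slc26a4 was compared within each exposure and time, which asks whether the lysosome genes depend on pendrin in air or after silica. Of these 6 comparisons, 1 gave a call by edgeR. Ctss was higher in knockout air lungs of 1 day, with 144.9 to 188.1 normalised CPM (median 169.7), than in wildtype air lungs, with 96.9 to 137.4 (median 118.3). The groups did not overlap, and the log2 difference was 0.49 (SE 0.10, adjusted p = 0.0347), where 0.0478% of all genes passed. The call was lost when any 1 of 9 of the 12 air libraries was left out. Ctss estimates of knockout over wildtype were 0.26 after silica at 1 day (SE 0.10, adjusted p = 0.492), and 0.30 in air (SE 0.14, adjusted p = 0.427) and 0.37 after silica (SE 0.14, adjusted p = 0.35) at 3 months. Without knockout silica replicate 3 the last estimate was 0.16 (SE 0.10, adjusted p = 0.743).

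In the other comparisons no member passed, while 0.00796% of all genes did after silica at 1 day, 0.142% in air and 0.174% after silica at 3 months, and 0.0156% in air and 0.0% after silica at 9 months. At an unadjusted p under 0.05 they held 4, 3, 4, 2 and 0 members, in that order. DESeq2 called 1 member in air at 3 months, where Ctsc had an edgeR estimate of 0.27 (SE 0.07, adjusted p = 0.0736), and 0 in the rest.

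The silica response itself was compared between genotypes at each time. No member passed, with 1 of 38 at an unadjusted p under 0.05 at each of 1 day, 3 months and 9 months, and DESeq2 and limma called 0. For Ctsd at 3 months, where knockout and wildtype estimates were 0.81 and 0.52, the difference was 0.30 (SE 0.21, adjusted p = 0.781). Without knockout silica replicate 3 it was -0.01 (SE 0.09, adjusted p = 0.994). Gusb had the smallest p at that time, with a difference of 0.28 (SE 0.13, adjusted p = 0.627), and 0.19 without that mouse (SE 0.12, adjusted p = 0.701). Over all genes 0.0% passed in each of the 3 tests. The larger knockout count at 3 months, 11 against 6, was therefore not shown to be a difference between the genotypes.

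Across times, the air lungs of both genotypes were compared by 1 model of all 70 libraries. From 1 day to 3 months no member passed (1 at an unadjusted p under 0.05, DESeq2 0, limma 0), where 0.113% of all genes did. From 3 to 9 months 28 of the 38 were higher and none lower, where 15.7% of all 13252 genes were higher and 29.2% passed in either direction. Time after exposure, age and any difference in handling cannot be told apart here. The increases were largest for Cd68 (1.37, SE 0.19, adjusted p = 4.82e-08), Ctss (1.32, SE 0.14, adjusted p = 7.2e-11), Ctsd (1.31, SE 0.16, adjusted p = 1.25e-09) and Ctsz (1.20, SE 0.15, adjusted p = 5e-09). By role, 8 of 10 proteases, 6 of 8 glycosidases, 4 of 6 lipid genes, 6 of 8 membrane genes, Grn and 3 of 5 pump parts were higher. Without the 3 air mice 18 members were higher, beside 8.78% of all genes, and Cd68, Ctss, Ctsd and Ctsz had 0.74, 0.87, 0.72 and 0.61 (SE 0.13, 0.10, 0.10 and 0.08). No pump part was then called. The same 18 were higher when the rule on Chil3 was applied to all groups, which left out the same air mice, beside 9.31% of all genes.

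With all mice, the 3 air mice of high Chil3 included, cell markers moved with the lysosome genes between these air groups. Higher at 9 months were 9 of 10 general macrophage genes, 6 of 7 of the lipid-laden list, 5 of 8 of the resident alveolar list, all 5 tested neutrophil genes and all 4 ciliated cell genes, while 4 of 6 endothelial genes were lower. The summed general macrophage level, most of it Lyz2, was 2804 to 3137 normalised CPM at 3 months and 3278 to 9656 at 9 months in wildtype air lungs, and 2887 to 3610 and 3660 to 8126 in knockout air lungs. Its medians were 2983 and 3904 in wildtype and 3134 and 4605 in knockout air lungs. The endothelial sum was 2981 to 3253 and 1612 to 2657 in wildtype, and 2976 to 3290 and 2056 to 2466 in knockout air lungs. None of these genes but Fcgr1, in 1 library, was at 0 in any library. Their part in the lysosome result was not tested.

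The silica effect at 9 months was lower than at 3 months for 4 members, Ctsz (-0.93, SE 0.21, adjusted p = 0.0232), Ctsd (-0.90, SE 0.22, adjusted p = 0.0313), Ctss (-0.88, SE 0.20, adjusted p = 0.0232) and Gusb (-0.72, SE 0.15, adjusted p = 0.0179), where 0.732% of all genes passed and 0.604% were lower. This comparison uses the same air mice as the one across times in air. Without the 3 air mice 0 members passed, and the estimates of those 4 were between -0.32 and -0.43. With the rule on Chil3 applied to all groups 0 passed as well, with estimates between -0.24 and -0.40. Leaving out wildtype air replicate 5 of 9 months alone gave 0, and leaving out knockout air replicate 4 gave 1, Gusb. Between 1 day and 3 months the silica effect differed for no member (5 of 38 at an unadjusted p under 0.05, DESeq2 0, limma 0), where 0.0755% of all genes passed.

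Beyond the 38 genes, other lysosomal genes were read, always with all mice, from lists that hold none of them. Their counts stand beside shares over all genes of 2.37% and 1.93% at 1 day, 2.96% and 4.8% at 3 months and 0.0234% and 0.179% at 9 months (wildtype and knockout), so 0 or 1 call in a list of this length is near what all genes gave. Of 28 other hydrolases, 1 was higher at 1 day in each genotype, Ctsk, the collagen-degrading cathepsin K. At 3 months 5 were higher in wildtype and 3 in knockout lungs, and none was lower at either time. Ctsk held 8.06 to 14.2 normalised CPM in wildtype air and 58.7 to 89.9 in wildtype silica lungs of 3 months, far apart (2.67, SE 0.15, adjusted p = 3.45e-14), and in knockout lungs 10.4 to 14.9 and 51.0 to 105.6 (2.66, SE 0.16, adjusted p = 1.31e-13). Each change exceeded that of any of the 38. At 1 day its log2 fold changes were 1.22 (SE 0.17) and 1.37 (SE 0.19). Acp5, the tartrate-resistant acid phosphatase, passed at 3 months with 0.88 (SE 0.18, adjusted p = 0.00304) and 0.83 (SE 0.19, adjusted p = 0.00805).

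Of 18 other lysosomal membrane proteins, 2 were higher in each genotype at both 1 day and 3 months, Gpnmb and Lamp3, which are also on the marker lists of lipid-laden macrophages and type 2 cells. A single gene was lower, the cation channel Tpcn1 in knockout lungs of 3 months (-0.42, SE 0.10). Gpnmb rose by 1.34 (SE 0.22) and 1.82 (SE 0.23) at 3 months, in wildtype and knockout lungs. In the knockout silica group replicate 3 held 267.4 normalised CPM of Gpnmb, while the other 5 mice reached 101.0. Lamp3, which marks the lamellar bodies of type 2 cells, rose by 0.37 and 0.25 (SE 0.07 each). Of 12 tested further proton pump subunits, 1 was higher in each genotype at 1 day and in wildtype lungs at 3 months, and 5 in knockout lungs at 3 months. Atp6v0d2, a subunit known from macrophages and osteoclasts, was called in all 4 comparisons, with 0.53, 0.55, 0.69 and 0.94 (SE 0.14, 0.15, 0.15 and 0.15). Its highest knockout silica mouse of 3 months held 144.1 normalised CPM, beside a group median of 77.1. The member of the same subunit family, Atp6v0d1, had 0.14, 0.02, -0.05 and -0.01.

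Among 16 regulators of lysosome genes, which include Tfeb, Tfe3, Mitf and parts of the mTORC1 machinery, 0 passed after silica in any genotype or time by edgeR, with 2 and 1 at an unadjusted p under 0.05 at 1 day, 1 and 0 at 3 months and 0 and 0 at 9 months. Tfeb medians were 24.6 and 18.8 normalised CPM in wildtype air and silica lungs of 1 day, and 20.1 and 20.8 at 3 months. Of 15 autophagy genes 0 passed in any of the 6 comparisons (between 1 and 5 at an unadjusted p under 0.05). The mannose 6-phosphate sorting list, 9 genes that route hydrolases to lysosomes, had 1 higher, Gnptab in knockout lungs of 3 months (0.28, SE 0.08, adjusted p = 0.0365). Of 8 genes of the response to lysosome damage, 0 and 1 were higher at 1 day and 2 and 1 at 3 months, and Lgals3, a galectin that binds broken lysosomes and is abundant in macrophages, rose by 0.61 and 0.91 at 3 months (SE 0.16 each). Lgals3 in knockout silica lungs of 3 months reached 242.5 normalised CPM, beside a group median of 120.7. Cathepsin inhibitors had 4 of 8 listed genes with enough counts, of which 1 and 0 were higher at 1 day and 2 and 3 at 3 months. Among them Cstb, cystatin B, rose by 0.64 and 0.50 at 3 months (SE 0.14 each).

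The calls were set beside the promoter string shown above. At 1 day 0 of the 11 members with TCACGTG were higher in either genotype, while 4 of 21 without it were in wildtype and 3 of 21 in knockout lungs. At 3 months 1 of 11 with the string was higher in wildtype lungs (Ctsd) and 2 of 11 in knockout lungs (Ctsd and Gla), and 5 of 21 and 8 of 21 without it. The median log2 fold change at 3 months was 0.06 and 0.176 with the string and 0.216 and 0.285 without. These are counts of few genes, and the difference between both sets was not tested. Lamp1, with 4 matches in its window, had 0.06 and 0.08 at 3 months (SE 0.05 each). Mcoln1, with 3 matches, had -0.05 and -0.09 (SE 0.11 each). An overlapping TCACGTGA counts here as 2 matches, and the windows of Ctsd and Gla also hold several. Cd68 and Ctsz, whose windows hold none, had the largest wildtype estimates of all 38 at 3 months.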

How the data were processed

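Whole-lung RNA of 70 mice was available as raw gene counts in 1 table deposited by the authors, with each column tied to its sample by its title. The submitters' processing notes name bcl2fastq 2.19, Trimmomatic 0.35, HISAT2 2.1.0, Cufflinks, SAMtools 1.8, HTSeq 0.11.2 and mm10; their settings, including strand, are not given in the sources used here, so reads of overlapping genes may be shared. Of 24439 rows, 19 repeats were dropped. Lars2 alone took 8.33% of all counts. Counts were filtered (filterByExpr), TMM-normalised and tested with edgeR 4.0.16 (limma 3.58.1, R 4.3.3) by the quasi-likelihood test, the 4 groups of a time together (12558, 12647 and 12826 genes) and the differences over time in 1 model of 12 groups (13252 genes). P-values were adjusted over all genes by Benjamini-Hochberg, and the SE was taken from the F statistic. Levels are TMM-normalised CPM. Alternatives were DESeq2 1.42.0, its size factors, no filter, limma voom with quality weights, other sets of libraries and leaving out each mouse. Tests were checked on simulated counts. Replicate libraries of a group differed by more than counting noise in all 170 pairs (chi-square per degree of freedom 1.47 to 14.3), so none was merged. Exon lengths and gene positions came from GENCODE. Summaries used pandas 2.3.3 under Python 3.11.15, and plots matplotlib 3.10.9. All 38 members could be named, up to 3 genes by smallest adjusted p from each other list, and Slc26a4; the remaining named genes were chosen after their values were seen. The members and lists were chosen with earlier results of these data known.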

Additional observations from a re-analysis of the deposited data

Results flagged for a closer look

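Dixon's criterion was applied to the summed level and to Cd68, Ctsz, Ctsd and Ctss in 12 groups, which gave 60 sets of values. Of these, 17 held a mouse far from the rest of its group of 5 or 6 mice. Chance gives about 1 in 20 for independent sets. These sets share mice, and the sum contains these genes, so the 17 cannot be set against that rate. Knockout silica replicate 3 of 3 months was high in the summed level of the 38 genes (9384 normalised CPM), Cd68 (97.6), Ctsz (208.3), Ctsd (1515) and Ctss (311.4). Wildtype air replicate 5 of 9 months was high in the sum (14530), Cd68 (228.1), Ctsz (443.1), Ctsd (2948) and Ctss (676.8). The library labelled knockout air 9 months, replicate 4, was high in Cd68 (168.6), Ctsz (398.7) and Ctss (784.8). Single values stood apart for Ctsz in knockout air replicate 3 of 1 day (78.06, low, in the shallowest library) and knockout silica replicate 1 of 1 day (148.2), and for Ctss in wildtype silica replicate 6 of 3 months (210.6) and replicate 5 of 9 months (312.5). The silica effect differed between 9 and 3 months on the log2 scale for Ctsd (-0.90), Ctss (-0.88), Ctsz (-0.93) and Gusb (-0.72).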

How the results depend on the processing

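Counts of members that passed moved by over 1.5 times in these settings. With all 70 libraries in 1 model they were 2 in each genotype at 1 day, 0 (wildtype) and 3 (knockout) at 3 months, 1 (lower, knockout) at 9 months and 0 between genotypes in air at 1 day. With the compared groups only they were 3 in knockout lungs at 1 day and 10 (1 of them lower) and 5 at 3 months. Between genotypes in air at 3 months that setting gave 1. With limma's quality weights they were 10 (1 of them lower) and 5 at 3 months and 1 in knockout lungs at 9 months. They were also 1 between genotypes in air at 3 months and 0 for the silica effect at 9 against 3 months. DESeq2 gave 1 between genotypes in air at 3 months. Without the 3 air mice, a setting chosen after seeing the data, they were 4 and 5 at 9 months, 0 for the silica effect at 9 against 3 months and 18 for air lungs at 9 against 3 months. With the same rule on Chil3 in all groups, also chosen after seeing the data, they were 3 and 5, 0 and 18. The cause was not tested. Leaving out 1 mouse gave 2 to 8 (wildtype) and 4 to 6 (knockout) at 1 day, 4 to 10 and 6 to 12 at 3 months, 0 at 9 months, 0 to 1 between genotypes in air at 1 day and at 3 months, 0 in the other genotype comparisons and in the differences of the silica response between genotypes, and, for 9-month mice only, 0 to 5 for the silica effect and 19 to 29 for air lungs at 9 against 3 months.

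Signs turned at 9 months. In wildtype lungs Cd68, Ctsz, Ctsd and Grn had 0.44, 0.37, 0.262 and 0.026 with quality weights, and in knockout lungs Ctsz, Ctsd and Lipa had 0.21, 0.10 and 0.22. Without the 3 air mice wildtype Cd68, Ctsz, Ctsd, Grn and Laptm5 had 0.62, 0.53, 0.46, 0.097 and 0.061, and knockout Ctsz, Ctsd and Lipa 0.37, 0.26 and 0.36. With the rule in all groups these were 0.605, 0.468, 0.301, 0.112 and 0.064, and 0.362, 0.258 and 0.355. Leaving out 1 mouse gave, in wildtype lungs, -0.318 to 0.625 for Cd68, -0.261 to 0.53 for Ctsz, -0.407 to 0.461 for Ctsd, -0.105 to 0.499 for Lipa, -0.183 to 0.094 for Grn and -0.391 to 0.06 for Laptm5. In knockout lungs it gave -0.297 to 0.226 for Ctsz, -0.018 to 0.197 for Ctsc, -0.338 to 0.077 for Ctsd and -0.098 to 0.255 for Lipa, and for Ctss between genotypes in air -0.10 to 0.719. Among estimates of named genes in the settings that left out no single mouse, 499 kept their direction and side of the threshold, 102 lost a call, 12 gained one and 23 turned sign. No paired analysis was possible because the titles carry animal numbers that belong to 1 mouse each. Low depth (802478 counts in the shallowest library) limits low genes such as Cln3 and Gla most.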

Other observations

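The 3 air mice of 9 months with high Chil3 also differed in genes outside the lysosome lists. Retnla, a secreted protein of alternatively activated macrophages, was 567.6 normalised CPM in wildtype air replicate 5, 3599 in the library labelled knockout air replicate 4 and 847.3 in knockout air replicate 5. Clca1, a product of mucous cells, was 10.3, 2124 and 478.6 in the same mice, and was at 0 in 40 of the 70 libraries.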
